A study of Mus musculus with 2 samples.

Results

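The 8 genes described here encode titin (Ttn), the nebulin family proteins nebulette and nebulin (Nebl and Neb), 2 myosin-binding C-proteins (Mybpc3 and Mybpc2) and 3 myomesins (Myom1, Myom2 and Myom3). They were chosen by gene symbol from 55536 mouse genes in the tables, and they carry 73 annotated transcript models. The RNA came from the hearts of 2 adult male B6CASTF1/J mice, a hybrid of the C57BL/6J and CAST strains, aged 8 to 10 months. The labels call the mice animals 2 and 4, give both the same donor entry, and name neither an engineered allele nor a treatment. Each animal gave 1 total RNA library from 300 ng of RNA after reduction of ribosomal RNA, here replicate 1 (42.05 M expected counts on mouse genes) and replicate 2 (39.98 M). Both libraries belong to a single group, so levels, transcripts and the spread between the animals are described, no condition is contrasted and no p-value is printed.

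Muscle contracts in sarcomeres, in which thick filaments of myosin slide along thin filaments of actin. Titin is a giant spring that spans from the Z-disc at the sarcomere's edge to the M-band at its centre and sets passive stiffness. Its elastic I-band segment is shortened or lengthened by alternative splicing, and the short form called N2B is typical of the adult rodent ventricle. Myosin-binding C-proteins sit on the thick filament and tune cross-bridges, and myomesins link thick filaments at the M-band. Nebulin runs along the thin filament of skeletal muscle, and the shorter nebulette anchors thin filaments at the Z-disc of heart muscle.

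Levels are given in TPM, a measure per transcript length scaled to a fixed sum in each library, as the mean ± SD over 2 libraries (n = 2). Of 21938 nuclear protein-coding genes, 10751 reached at least 1 TPM in both libraries, and of the 8 genes 7 did. Myom3 was the exception, and scaled over nuclear protein-coding genes it too passed, at 1.56 and 1.66 TPM. By TPM summed over all models of a gene, Ttn stood highest, followed by Mybpc3, Myom1, Myom2, Nebl, Mybpc2, Neb and Myom3. In this order no neighbouring genes overlapped between libraries. Between neighbouring means the narrowest step lay between Myom2 and Nebl, at 1.48-fold, with 149 TPM in the lower Myom2 library and 112 TPM in the higher Nebl library. The widest step lay between the means of Nebl and Mybpc2, at 18.4-fold. A separate quantification of the same libraries, with kallisto-type columns and here called the second quantification, gave the same order.

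**Figure D1:**
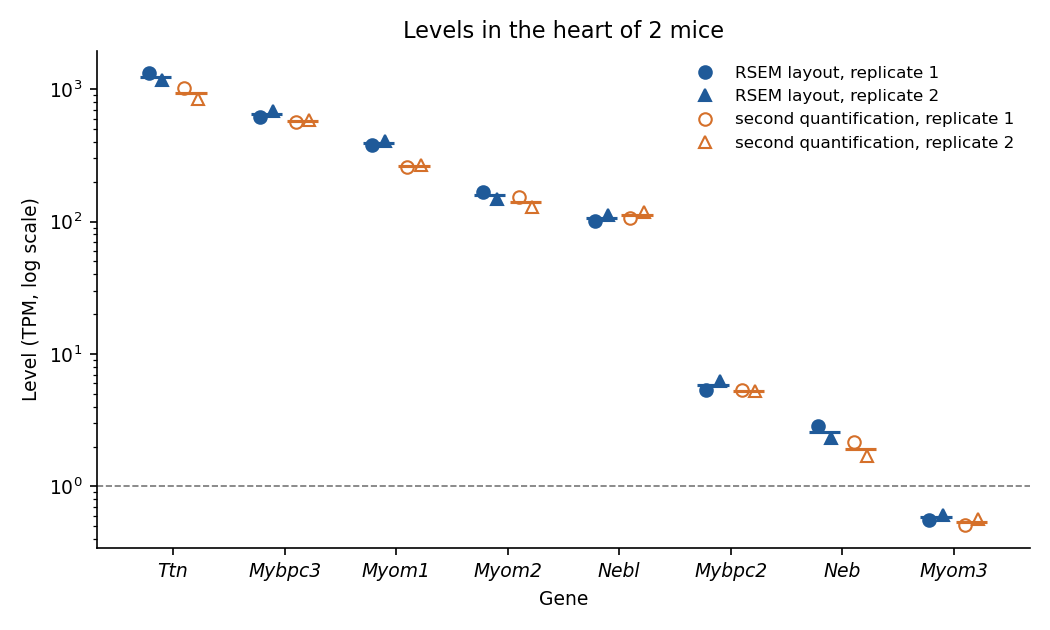
Level of each gene in TPM (log scale) in both libraries, with filled symbols for the RSEM-layout table, open symbols for the second quantification and short lines for the means. Ttn, Mybpc3, Myom1, Myom2 and Nebl lie above 100 TPM and Mybpc2, Neb and Myom3 below 7 TPM, with the dashed line at 1 TPM.

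Ttn (ENSMUSG00000051747.14, mm10 chromosome 2, 76703980 to 76982547, minus strand) measured 1318 TPM in replicate 1 and 1169 TPM in replicate 2, a mean of 1243 ± 105 TPM. That placed it at rank 28 of 21938 nuclear protein-coding genes. The level and rank sum over all models, many of them partial. The 6 models annotated as coding with no unfinished end summed to 616 TPM in replicate 1 and 537 TPM in replicate 2. In the second quantification Ttn measured 932 ± 118 TPM over all models. Because its mRNA is so long, it took a larger share of the reads than its TPM rank alone conveys. Ttn held 4.01% of all expected counts in replicate 1 (exact 95% binomial interval 4.001 to 4.01%) and 3.45% in replicate 2 (3.44 to 3.45%). The 8 genes together held 4.43% and 3.89%, so Ttn supplied most of their reads.

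The titin splice forms are told apart by a few junctions. Ttn-201, a complete model of 192 exons and 81843 nucleotides, holds a 2646-nucleotide exon known as the N2B element (exon 45, 76907308 to 76909953). From the following exon 46 it joins directly to exon 47 (76818736 to 76818816), and this junction, which skips 87.4 kb, is in no other Ttn model. The long model Ttn-204 (312 exons, 100404 nucleotides) lacks the N2B element and continues from the same exon into 121 exons inside the skipped interval. Ttn-203 (347 exons, 106824 nucleotides) holds all exons of Ttn-201 and 155 more. Ttn-202, the short form known as novex-3, stops in a last exon of 6520 nucleotides (76913944 to 76920463). The junctions are printed because they show where these models part. Those of Ttn-201 from exon 46 to 47 and of Ttn-202 into its last exon are in no other Ttn model. The junction into the N2B element is also in Ttn-203, and which models share that of Ttn-204 is not given here. They run 5′ to 3′ on the gene's strand, from the GENCODE M21 transcripts on mm10. In each, 30 bases of the earlier exon are in lower case and 30 bases of the later exon in capitals.
Ttn-201 exon 46 to 47: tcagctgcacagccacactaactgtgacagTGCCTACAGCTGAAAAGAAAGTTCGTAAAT
Ttn-204 from the same exon: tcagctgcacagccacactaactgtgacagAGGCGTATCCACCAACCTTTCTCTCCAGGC
Ttn-202 into its last exon: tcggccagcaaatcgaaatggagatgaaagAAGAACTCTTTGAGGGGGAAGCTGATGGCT
Ttn-201 from the same exon into the N2B element: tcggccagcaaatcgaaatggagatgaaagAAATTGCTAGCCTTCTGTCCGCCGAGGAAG

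Among the 25 Ttn models, 5 held 5% or more of the gene's TPM in at least 1 library, and Ttn-201 led. It measured 525 TPM in replicate 1 and 451 TPM in replicate 2, which is 39.9% and 38.6% of the gene. Since it is the longest of the 5, those shares correspond to 88.3% of the gene's expected counts. The next were Ttn-215 with 28.1% and 27.7% of the TPM, Ttn-218 with 14.9% and 16.1%, Ttn-202 with 6.05% and 6.48%, and Ttn-219 with 5.94% and 5.93%. Ttn-215, Ttn-218 and Ttn-219 are partial models whose annotation marks at least 1 end as unfinished. Ttn-215 (12 exons, 2159 nucleotides) covers the first 17.5 kb of the gene and includes a 138-nucleotide exon (76965777 to 76965914) that Ttn-201 lacks. Ttn-218 (51 exons) and Ttn-219 (17 exons) lie in the elastic region, with 44 and 10 exons inside the interval that Ttn-201 skips.

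Counting only complete models, which are protein-coding with no unfinished end, Ttn-201 held 84.6 ± 0.859% of the TPM of 6 models and Ttn-202 held 13.5 ± 0.836%. In the second quantification the shares were 89.1 ± 0.655% and 6.69 ± 0.594%. The level of Ttn-202 was thus 77.8 ± 2.77 TPM in one and 31.3 ± 1.69 TPM in the other. Among the 4 complete models that hold both exons of the Ttn-201 junction, Ttn-201 had 97.8 ± 0.0474%, against 95.5 ± 0.0935% in the second quantification. Ttn-204 supplied most of the rest, at 10.7 ± 0.905 TPM and 17.8 ± 2.26 TPM. Ttn-203 was at 0.01 and 0 TPM, against 2.14 and 1.76 TPM in the second quantification, and Ttn-205 and Ttn-225 were at 0 TPM in both libraries of the RSEM-layout table.

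Reads inside the skipped interval were assigned mostly to partial models. All 19 models with exons there held 25.7 ± 0.877% of the gene's TPM and 7.17 ± 0.354% of its expected counts. The 15 partial ones held 24.9 ± 0.877% of TPM, and the 4 complete ones 0.86%. In the second quantification the 19 models held 32.7 ± 1.03% and the complete ones 2.12 ± 0.00418%. Sequence separates these models poorly. Only 27 of the 81813 31-base words of Ttn-201 and 34 of the 100374 of Ttn-204 occur in no other Ttn model, and none of Ttn-215. Among the 5 models with 5% or more of the TPM, Ttn-202 had the highest share of such words, 38.7%. Shares of the partial models are therefore estimates of the 2 quantification programs, and how much elastic-region sequence a single mRNA carried was not measured.

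**Figure D2:**
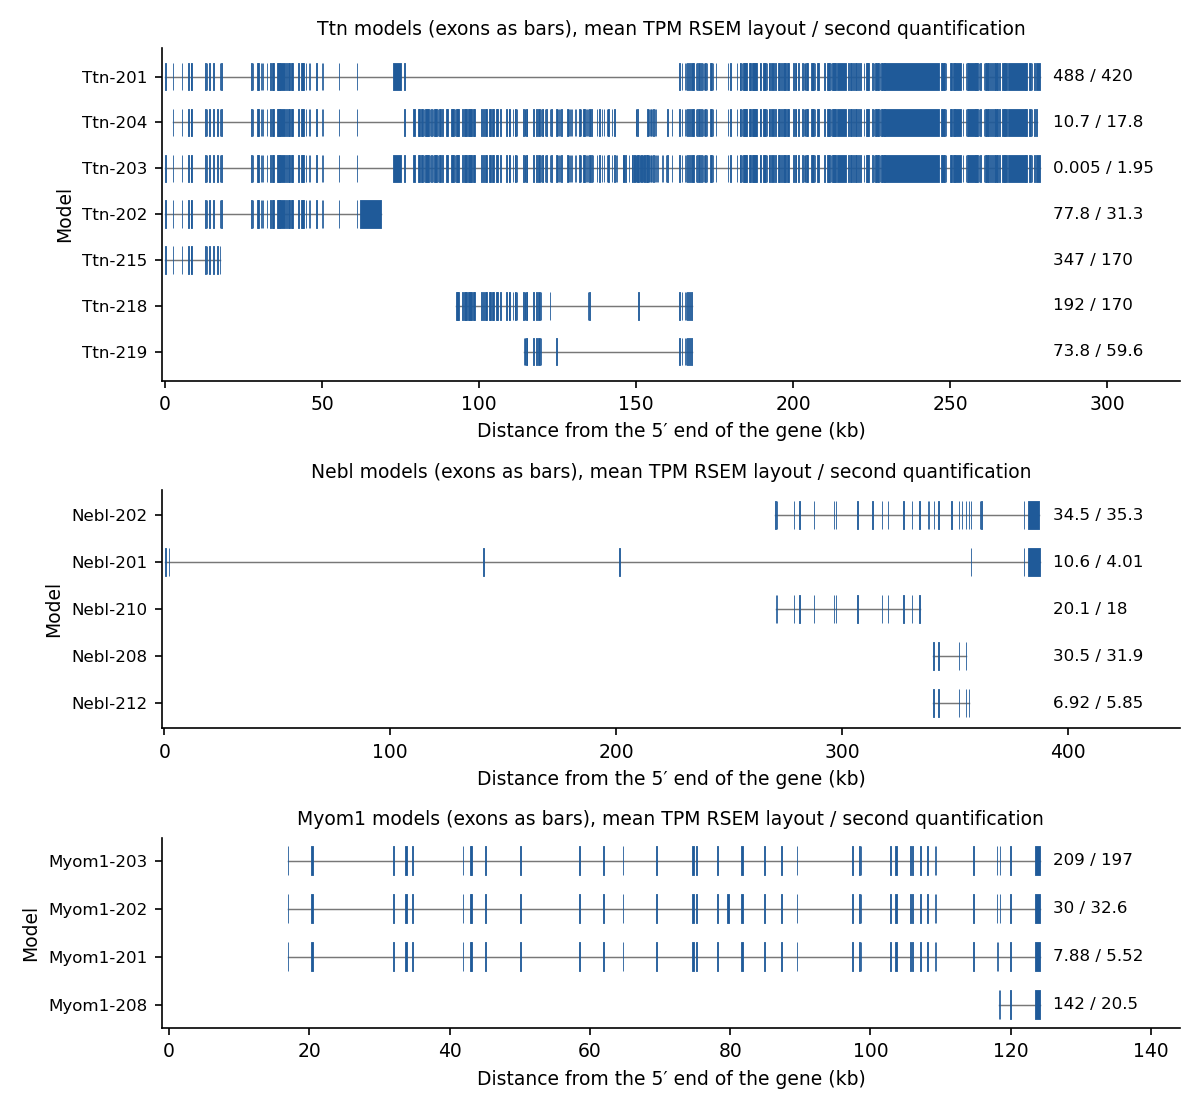
Exon maps of transcript models of Ttn, Nebl and Myom1 against distance from the gene's 5′ end in kb, with exons as bars (thin exons drawn at a minimum width) and introns as lines. Numbers at the right give the mean TPM in the RSEM-layout table and in the second quantification. Ttn-201 shows the empty 87.4 kb interval that Ttn-204, Ttn-203, Ttn-218 and Ttn-219 fill in part, and Nebl-201 starts far upstream of Nebl-202.

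Of the C-proteins, the cardiac form Mybpc3 was high and the fast skeletal form Mybpc2 low. Mybpc3 (ENSMUSG00000002100.15, chromosome 2, 91118144 to 91136516, plus strand) measured 619 TPM in replicate 1 and 685 TPM in replicate 2, a mean of 652 ± 46.6 TPM and rank 61. Mybpc2 (ENSMUSG00000038670.11, chromosome 7, 44501699 to 44524656, minus strand) measured 5.36 and 6.29 TPM, from 655 and 725 counts. Within a library Mybpc3 exceeded Mybpc2 by 6.81 ± 0.06 on the log2 scale, which is 112-fold. The groups of values lie far apart in both libraries.

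Both C-protein genes were read essentially as 1 model each. Mybpc3-203 held 99.3% and 99.1% of the gene and 99.4% and 99.2% in the second quantification. Mybpc2-201 held 100% in both libraries, against 91.4% and 100% in the second quantification. The 3 Mybpc3 models differ, among other places, at very short exons. Mybpc3-203 has a 3-nucleotide exon (91122340 to 91122342) followed by a 12-nucleotide exon (91122636 to 91122647). Mybpc3-201 shortens the latter to 9 nucleotides, and Mybpc3-202 leaves out the 3-nucleotide exon. Mybpc3-202 also differs elsewhere, with a coding length of 3339 nucleotides against 3834 in Mybpc3-203. The short-exon variants are printed because all 3 models differ there, with the short exons in capitals and 24 bases of the exon on either side in lower case.
Mybpc3-203: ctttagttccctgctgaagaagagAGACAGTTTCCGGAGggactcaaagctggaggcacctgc
Mybpc3-201: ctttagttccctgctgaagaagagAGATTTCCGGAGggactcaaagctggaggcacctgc
Mybpc3-202: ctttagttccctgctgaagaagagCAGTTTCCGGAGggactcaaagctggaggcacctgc
Mybpc3-201 had 351 and 298 expected counts and Mybpc3-202 had 216 and 511, with posterior SDs between 101 and 198. Against 86909 and 90528 counts of Mybpc3-203, neither reached 1% of the gene in a library.

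The myomesins spread over a wider range than the other families. Myom1, the myomesin of all striated muscle (ENSMUSG00000024049.15, chromosome 17, 71002633 to 71126856, plus strand), measured 376 TPM in replicate 1 and 407 TPM in replicate 2. Myom2, also called M-protein and typical of fast fibres and adult heart (ENSMUSG00000031461.4, chromosome 8, 15057653 to 15133541, plus strand), measured 168 and 149 TPM. Myom3, known from slow and intermediate skeletal fibres (ENSMUSG00000037139.15, chromosome 4, 135759715 to 135815564, plus strand), measured 0.56 and 0.61 TPM, from 60 and 59 counts. Myom1 exceeded Myom2 by 1.31 ± 0.2 on the log2 scale (2.47-fold) and Myom3 by 9.39 ± 0.00722 (669-fold). In the second quantification the difference between Myom1 and Myom2 was 0.9 ± 0.2 (1.87-fold), so its size depended on the quantification while its direction held in both libraries. Myom1 exceeded Myom3 there by 8.93 ± 0.0895 (487-fold). With so few Myom3 counts, the small SD of 0.00722 does not measure how precise that ratio is.

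The gap in Myom1 between quantifications lay mostly in 1 short model. Myom1-208, a noncoding model of 941 nucleotides at the gene's 3′ end, held 35.7% and 36.8% of the gene in the RSEM-layout table but 6.55% and 9.01% in the second quantification. It carried 8.36% of the gene's expected counts. The 3 complete Myom1 models summed to 238 and 256 TPM in the RSEM-layout table and to 234 and 236 TPM in the second quantification. Of these Myom1-203 led, with 52.9% and 53.9% of the gene, and Myom1-202 followed with 7.33% and 8%.

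Myom1-202 differs from Myom1-203 by an extra coding exon of 294 nucleotides (exon 18, 71082203 to 71082496), which corresponds to the EH segment, a flexible stretch that marks the embryonic heart form of myomesin. The model with this exon held 11.6% of the TPM of complete Myom1 models in replicate 1 and 12.7% in replicate 2. In the second quantification it held 13.1% and 14.6%. The adult hearts thus gave a minor share for this form in both libraries and both quantifications. Only 29 of the 5618 31-base words of Myom1-202 and 0 of the 5286 of Myom1-203 occur in no other Myom1 model. The share is therefore an estimate of the programs. The exon and the junction that skips it are printed because the 2 models part there. The exon is in capitals, and for the junction the capitals mark the exon that follows.
Myom1-202 exon 18: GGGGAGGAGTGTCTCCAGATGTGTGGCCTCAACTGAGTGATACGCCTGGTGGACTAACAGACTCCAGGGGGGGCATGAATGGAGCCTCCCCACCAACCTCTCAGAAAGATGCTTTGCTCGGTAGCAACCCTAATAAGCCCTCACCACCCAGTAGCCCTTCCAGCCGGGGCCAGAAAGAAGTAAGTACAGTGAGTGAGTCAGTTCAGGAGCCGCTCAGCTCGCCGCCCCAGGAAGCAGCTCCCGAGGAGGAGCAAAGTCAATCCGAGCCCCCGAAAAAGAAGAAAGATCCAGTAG
Myom1-203 junction: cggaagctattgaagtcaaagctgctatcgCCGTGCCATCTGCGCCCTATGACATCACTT

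Myom2 was read as Myom2-201, a 37-exon coding model with 97.1% and 97.3% of the gene (93% and 92.4% in the second quantification). For Myom3 the leading model was not annotated as coding. This model, Myom3-203, is annotated as a retained intron, begins 38.5 kb into the gene and held 80% and 83.8%. Yet 12 of its 13 exons are also in the coding model Myom3-201, and only its first exon, of 242 nucleotides, is not. Only 102 of its 2521 31-base words occur in no other Myom3 model. Its share is therefore an estimate of the programs, and how much Myom3 RNA kept an intron was not measured. The coding model Myom3-201 held 20% and 16.2%, or 0.11 and 0.10 TPM, from 21.5 and 17.8 expected counts. At this depth few reads were assigned to the coding model. Since the models share 12 exons, these counts do not bound the level of the coding mRNA of Myom3.

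In the nebulin family Nebl was the major gene and Neb a minor one. Nebl (ENSMUSG00000053702.16, chromosome 2, 17343909 to 17731464, minus strand) measured 102 TPM in replicate 1 and 112 TPM in replicate 2. Neb (ENSMUSG00000026950.17, chromosome 2, 52136647 to 52378474, minus strand) measured 2.87 and 2.32 TPM, from 858 and 604 counts. Nebl exceeded Neb by 5.37 ± 0.319 on the log2 scale (41.5-fold), and by 5.87 ± 0.358 in the second quantification (58.7-fold). The values of the 2 genes did not overlap in either quantification.

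Nebl gives 2 different proteins from separate first exons. Nebl-202 (28 exons, coding length 3042 nucleotides) is the nebulette form and starts in an exon at 17460458 to 17460932. Nebl-201 (7 exons, coding length 810 nucleotides) is the short LIM-nebulin form, starts at 17730793 to 17731043, and joins the nebulette exons at a shared exon (17374185 to 17374356). The models share only 2 whole exons, so they differ elsewhere too. Printed is where they meet at that shared exon. The last 30 bases before it are in lower case, and its first 30 bases are in capitals.
Nebl-202: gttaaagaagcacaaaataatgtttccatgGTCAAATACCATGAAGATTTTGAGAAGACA
Nebl-201: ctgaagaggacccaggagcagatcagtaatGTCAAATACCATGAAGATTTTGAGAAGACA
Nebl-202 was at 32.3 and 36.7 TPM and Nebl-201 at 10.4 and 10.8 TPM, so the model Nebl-202 was 3.25 ± 0.206-fold higher. In the second quantification the fold was 8.82 ± 0.733, because Nebl-201 was lower there, at 4.15 and 3.88 TPM. Nebl-202 was the higher in both libraries of both quantifications, but its lead differed, at 3.25-fold in one and 8.82-fold in the other. These folds compare 2 models only and leave out the shorter ones. Of those, Nebl-210 shares 11 of its 13 exons with Nebl-202. How the short models divide between the forms was not tested.

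Much of the Nebl TPM lay on short models. Nebl-208, a noncoding model of 436 nucleotides, held 27.6% and 29.1% of the gene, the partial coding model Nebl-210 held 17.6% and 19.9%, and Nebl-212 held 6.87% and 6.1%. By expected counts the order was other. Nebl-202 took 71.8%, Nebl-201 15.7%, Nebl-210 6.94% and Nebl-208 2.67% of the counts. None of the 406 and 1396 31-base words of Nebl-208 and Nebl-210 is absent from the other Nebl models. The second quantification also placed 10.2% and 16.4% on Nebl-209, which was at 0.22% and 0% in the RSEM-layout table.

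For Neb, 8 models reached 5% in at least 1 library. The full-length Neb-202 (157 exons, 22489 nucleotides) led with 29.6% in replicate 1 and 17.4% in replicate 2. Neb-203, an almost equal model of 21456 nucleotides, was at 0% and 7.4%. The partial or noncoding models Neb-213, Neb-210, Neb-208, Neb-209 and Neb-204 and the shorter complete model Neb-201 ranged from 5.42% to 18.5% in single libraries. These shares rest on few reads: apart from Neb-202 and Neb-203, no Neb model had more than 102 expected counts in a library. Neb-213, at 12.7% and 16.7%, was at 0% in the second quantification. The split of Neb into transcripts was thus poorly fixed, whereas the low level of the gene was similar in both quantifications (2.6 ± 0.389 and 1.93 ± 0.32 TPM).

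**Figure D3:**
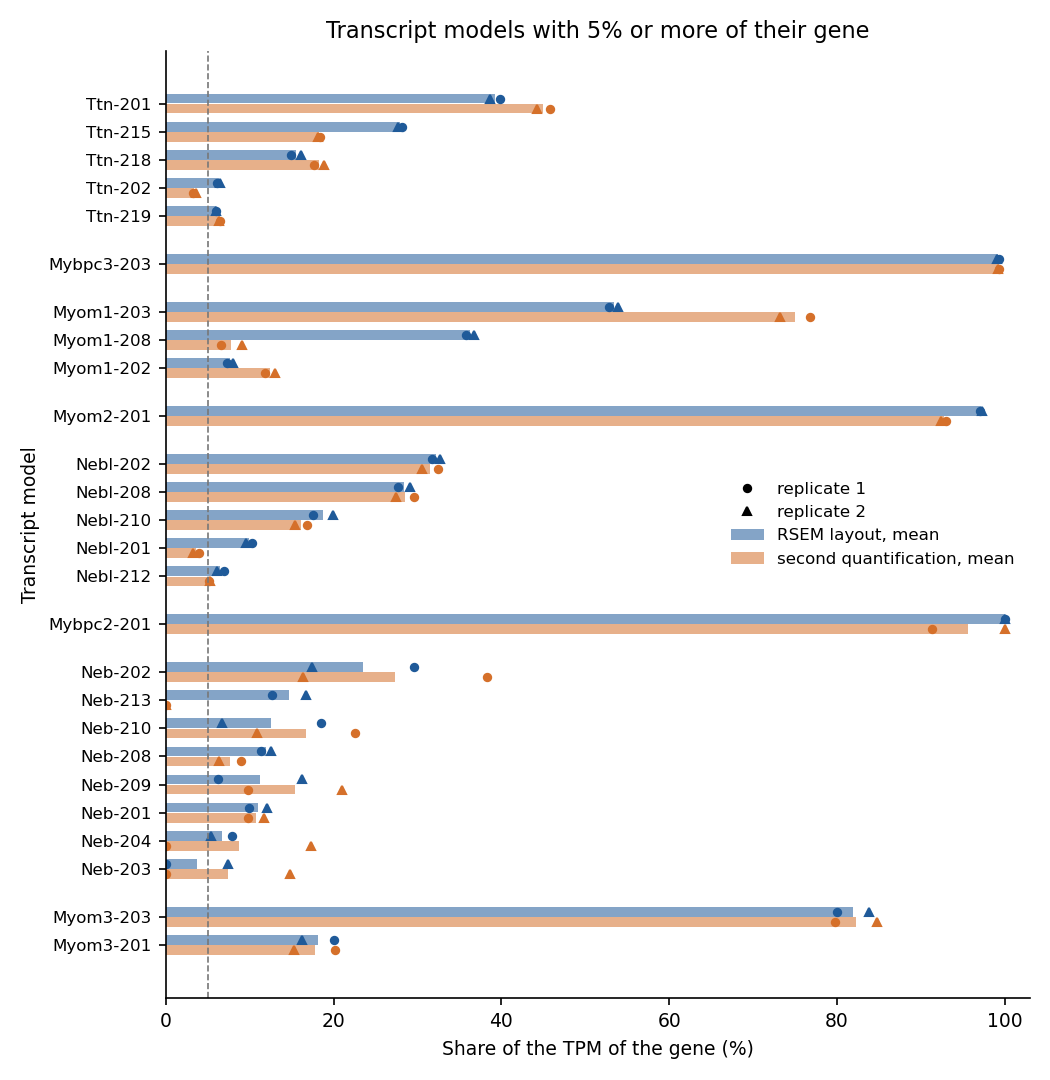
Share of each gene's TPM (in percent) held by every transcript model with 5% or more in at least 1 library, as the mean over 2 libraries (bars) with both libraries as points, in the RSEM-layout table and the second quantification. Mybpc3-203, Mybpc2-201 and Myom2-201 hold over 90% in both, Myom1-208 falls from 36.2% to 7.78%, and the Neb models spread widely between libraries.

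Across the 8 genes, 26 of the 73 models passed 5% in at least 1 library, and the leading model by mean share was the same in both quantifications for 8 of 8 genes. In replicate 2 alone it was the same for 7, since Neb-209 (21%) and Neb-204 (17.3%) exceeded Neb-202 (16.4%) in the second quantification. Complete coding models held 100% of Mybpc3 and Mybpc2 and 97.2 ± 0.148% of Myom2. They held 63.1 ± 0.382% of Myom1, 46.4 ± 0.608% of Ttn, 45.5 ± 2.21% of Nebl, 38.3 ± 1.87% of Neb and 18.1 ± 2.69% of Myom3. By expected counts they held 93.6 ± 0.33% of Ttn, 91 ± 0.114% of Myom1 and 89.1 ± 0.506% of Nebl. In these 3 genes the TPM of partial and noncoding models thus came from a small part of the reads.

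Titin was set against partners it binds. Within a library Ttn exceeded Mybpc3 by 0.93 ± 0.225 on the log2 scale of TPM (1.91-fold) and Myom1 by 1.67 ± 0.202 (3.17-fold). The values of the single libraries were 1.09 and 0.77 for Mybpc3, and 1.81 and 1.52 for Myom1. Replicate 1 was the higher in both ratios, and Ttn summed over all its models was the higher gene in both libraries. Counting complete models only, Ttn was at 616 and 537 TPM, lower than Mybpc3 at 619 and 685 TPM. In the second quantification these sums were 519 and 424 TPM for Ttn against 565 and 587 TPM for Mybpc3. The complete Myom1 models, at 238 and 256 TPM, stayed below those of Ttn.

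The 2 animals were compared gene by gene. Expected counts were scaled between libraries with TMM, and a gene was called when it had at least 200 counts, differed at least 2-fold, and had an exact counting interval (two-sided error 0.1%) that left out 1. Among all 10960 genes tested 1.08% were called, and of the 7 members with enough counts 0 were. At a threshold of 1.2-fold 10.3% of all genes were called, and 1 of the 7 members, Neb. Its ratio of replicate 2 over replicate 1 was 0.731 (0.612 to 0.871). With no threshold on the fold the interval left out 1 for 18.1% of all genes and for 6 of the 7. The intervals narrow with more counts and cover counting error only, and each animal gave a single library, so no replicate stands behind these differences.

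Ttn was 15.2% lower in replicate 2, with a ratio of 0.848 (0.845 to 0.852). Myom2 had a ratio of 0.874 (0.849 to 0.899). Mybpc3 at 1.08 (1.07 to 1.10), Nebl at 1.08 (1.04 to 1.13) and Myom1 at 1.05 (1.03 to 1.07) lay on the other side of 1. The intervals of Mybpc2 (0.961 to 1.37) and Myom3 (0.547 to 1.9) held 1. The genes did not move together between the animals: Ttn, Myom2 and Neb were lower in replicate 2, and Mybpc3, Nebl and Myom1 higher. The median absolute log2 ratio was 0.195 over the 7 members and 0.107 over all genes with enough counts.

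**Figure D4:**
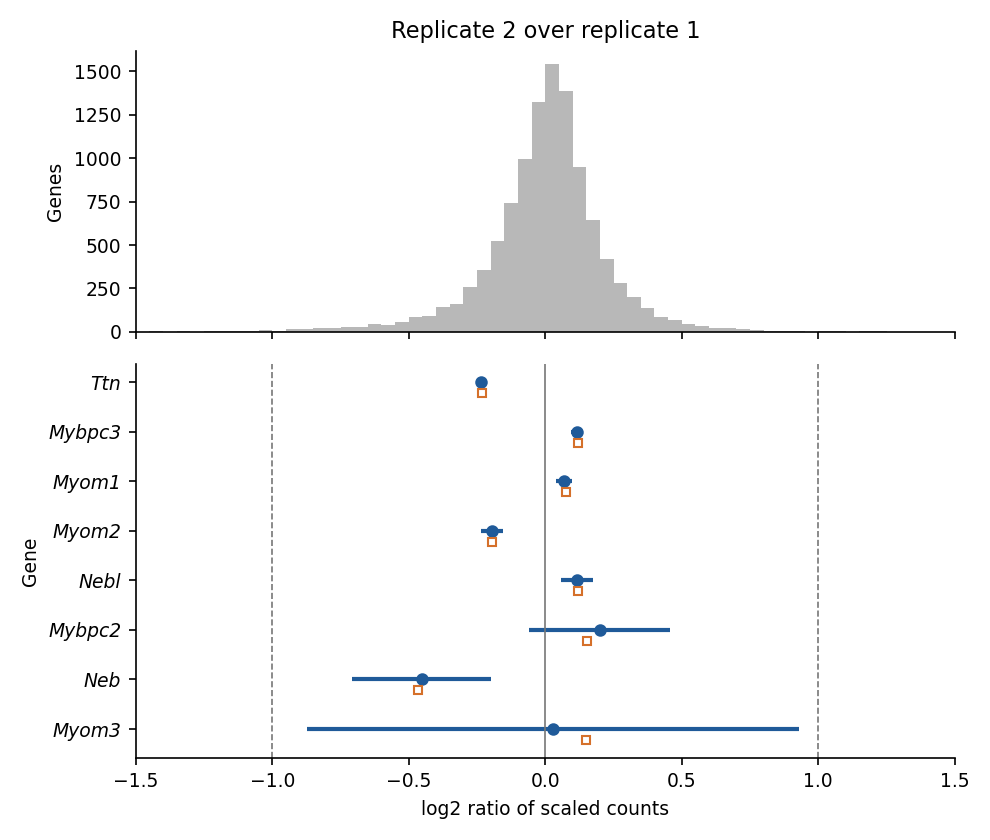
Upper panel, number of genes per bin of the log2 ratio of replicate 2 over replicate 1 for genes with 200 or more counts. Lower panel, the same ratio for each of the 8 genes (filled circles) with the counting interval (two-sided error 0.1%), and the ratio in the second quantification (open squares). All 8 lie between the dashed lines at a 2-fold difference, and Neb lies farthest from 0 at -0.45.

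Genes that work beside these 8 were listed by role. Of 12 other thick filament genes, 10 reached 1 TPM in both libraries, with a median of 168 ± 5.5 TPM. The highest were the myosin light chains Myl2 (7983 ± 458 TPM) and Myl3 (4011 ± 229 TPM) and the heavy chains Myh6 (6638 ± 443 TPM) and Myh7 (521 ± 21 TPM). Of 18 titin-binding and M-band turnover genes, 17 did so, with a median of 135 ± 9.48 TPM. They were led by Cryab, a small heat shock protein that binds the titin spring (1289 ± 11.4 TPM), Tcap, the cap that ties titin to the Z-disc (895 ± 194 TPM), the LIM protein Csrp3 (868 ± 62.7 TPM) and Fhl2 (702 ± 33.4 TPM). Tcap measured 758 TPM in replicate 1 and 1033 TPM in replicate 2, opposite in direction to Ttn. Of 16 genes for thin filament ends and nebulin partners, 15 did so, with a median of 47.9 ± 1.09 TPM. After cardiac actin, Actc1 (5014 ± 385 TPM), the highest were the filament elongation factor Lmod2 (299 ± 27.2 TPM), the nebulin-related anchor Nrap (186 ± 5.23 TPM) and the actin-binding Xirp2 (154 ± 5.23 TPM). For comparison the median over the 8 genes was 133 ± 2.82 TPM, and over 21938 nuclear protein-coding genes 1.03 ± 0.0424 TPM. Of the latter, 10751 reached 1 TPM in both libraries.

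The tissue label was checked against markers. All 6 heart muscle cell markers passed 1 TPM (median 3327 ± 188 TPM), as did all 5 of atrial heart muscle (171 ± 17.3 TPM). Mybpc2, Neb and Myom3 are known from skeletal muscle, and markers of that tissue were low but present. Of 10 fast skeletal markers, 6 reached 1 TPM in both libraries, none was at 0 in both, and their summed level was 27.5 TPM in replicate 1 and 28.1 TPM in replicate 2. Myl1 led at 14.5 and 14.4 TPM. Of the fast myosin heavy chains listed, Myh4 was at 1.94 and 1.98 TPM. Myh1 was at 0.1 and 0.16 TPM and Myh2 at 0.1 TPM in both libraries. Of 3 slow skeletal markers 1 reached 1 TPM, with sums of 4.79 and 5.92 TPM. The part of skeletal muscle in the levels of Mybpc2, Neb and Myom3 was not tested. Markers of endothelium (median 37 ± 3.09 TPM), fibroblasts (17.4 ± 0.205 TPM), smooth muscle (12.4 ± 2.91 TPM) and macrophages (6.78 ± 0.283 TPM) were also read. In a piece of tissue fewer cells of a type and less RNA per cell cannot be told apart.

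**Figure D5:**
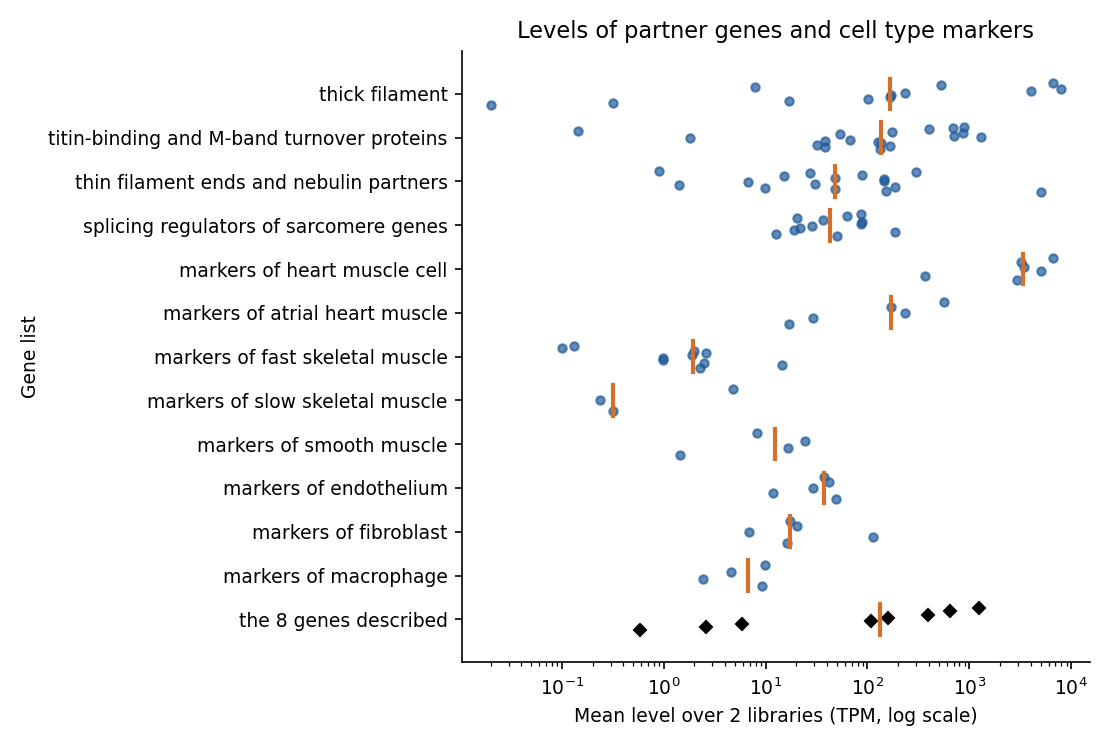
Mean level over 2 libraries in TPM (log scale) of each gene in the partner and marker lists (circles), with the 8 genes described as diamonds and list medians as orange lines. The diamonds fall into 5 genes above 100 TPM and 3 below 7 TPM.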

How the data were processed

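Total RNA from 2 hearts was sequenced, 1 library each. The authors deposited tables per gene and per transcript that hold expected counts, TPM and FPKM in the column layout of RSEM, per the file headers. Each transcript's percent of its gene is also as deposited by the authors. The authors deposited further columns of other kinds, such as interval bounds, that were not used. A second deposited table gives estimated counts and TPM in the layout of kallisto, per the file headers. The assembly is mm10 and the annotation GENCODE M21, per the deposited file listings. Aligner, tool versions and use of strand in counting remain not given in the sources used here. The effective length in the RSEM-layout tables is the length less 100 nucleotides, against a median of 249 less in replicate 1 and 248 in replicate 2 of the second quantification, which raises short models differently. Reads of CAST alleles were counted against the C57BL/6J sequence, and what this loses was not analysed here.

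Expected counts were rounded and scaled with TMM (edgeR 4.0.16, R 4.3.3); DESeq2 1.42.0 size factors were an alternative. Exact Clopper-Pearson intervals came from scipy 1.17.1 and cover counting error only, since the reads carry no molecular identifiers. The calling rule was tested on counts simulated with counting noise only, so the test does not cover variation between animals. The libraries' counts differed by a chi-square of 15.4 per degree of freedom over 17075 genes, more than sampling noise, so they were kept as 2 samples. Exon structures and sequences came from the GENCODE M21 files. The genes and gene lists were chosen with earlier results of these data known. Named were the 8 genes, each transcript with 5% or more, and up to 4 genes per list by mean TPM. Myh1, Myh2, Myh4, Ttn-203, Ttn-204, Ttn-205, Ttn-225, Mybpc3-201, Mybpc3-202 and Nebl-209 were named after their values were seen. No test across replicates was possible in a single group of 2 libraries, so results are descriptions.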

Additional observations from a re-analysis of the deposited data

How the results depend on the processing

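No paired analysis was possible because the series holds a single group. None of the log2 ratios below changed sign under the settings given here. The order of Ttn and Mybpc3 did reverse when only complete models were counted, which is not among these settings. In replicates 1 and 2 Ttn was then at 616 and 537 TPM, below Mybpc3 at 619 and 685 TPM. Ttn was also the lower of the pair in both libraries of the second quantification. With expected counts not corrected for length, the log2 ratios were 4.17 for Nebl over Neb, 7.02 for Mybpc3 over Mybpc2, 0.89 for Myom1 over Myom2, 9.66 for Myom1 over Myom3, 8.77 for Myom2 over Myom3, 4.09 for Ttn over Mybpc3 and 4.98 for Ttn over Myom1, the last pair because titin mRNA is so long. In the second quantification they were 5.87 for Nebl over Neb, 0.90 for Myom1 over Myom2, 8.93 for Myom1 over Myom3 and 0.69 for Ttn over Mybpc3. With a pseudocount of 1 TPM they were 4.91 for Nebl over Neb, 6.58 for Mybpc3 over Mybpc2, 7.95 for Myom1 over Myom3 and 6.65 for Myom2 over Myom3, where the low gene is near the pseudocount. With 250 nucleotides taken from each length they were 1.09 for Myom1 over Myom2, 9.43 for Myom1 over Myom3 and 8.34 for Myom2 over Myom3. At 1.2-fold, 1 member was called between the animals in place of 0. With 2 libraries, leaving out either cannot move a mean by more than the SD, so it says nothing of stability. The levels of all 8 genes moved by more than their SD in FPKM, over protein-coding genes only and with 250 nucleotides taken from the length, whose scale differs by construction. At 10 TPM, 5 genes passed in place of 7 at 1 TPM, and 8 passed 1 TPM over nuclear protein-coding genes. The leading transcript was the same in both quantifications for 7 genes without replicate 1 and for 8 without replicate 2. The 2 libraries fix no SD closely, and the 60 and 59 counts of Myom3 limit what can be said of its transcripts. The shares among complete models were compared across quantifications by a choice made after seeing the data. Except where stated, the cause of a change was not tested.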

Other observations

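Genes that regulate splicing of sarcomere mRNAs were all read: 12 of 12 reached 1 TPM in both libraries, with a median of 43.2 ± 1.08 TPM. The highest were the RNA-binding proteins Qk (184 ± 11.3 TPM), Mbnl1 (88.7 ± 3.05 TPM) and Mbnl2 (86.8 ± 5.37 TPM). Rbm20, a regulator known to repress exons of the titin spring, was at 81 TPM in replicate 1 and 90.7 TPM in replicate 2, while the share of Ttn-201 among complete models was 85.2% and 84%. A pair of libraries gives no relation between these values.

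Annotated genes that overlap the 8 genes were checked, and these were named after their values were seen. Of 10 such genes, 7 had 0 expected counts in both libraries, among them the antisense gene Gm13938 inside Ttn. Gm13522, antisense to Neb, had 3 and 3 counts, and Gm26561 had 3 and 0. Myl12a, on the strand opposite to Myom1 and overlapping its 5′ end (70993656 to 71002878), was at 420 and 418 TPM. Of the 31-base words of Myom1, 1.7% occur in another gene on either strand, led by Myl12a, against 0.261% for Ttn and 0% for Mybpc3. The highest share was that of Mybpc2, 3.74%, led by Gm44646, and Myom2 had 1.35%. In Myom1 the shared words lay only in the partial model Myom1-209, where they made up 8.16%. That model was at 0.05 and 0.15 TPM, and at 5.06 and 4.59 TPM in the second quantification.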
